A study of Mus musculus with 6 samples.

Results

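The mitochondrial ribosome is built in mitochondria from a large and a small subunit, each with an RNA encoded in mitochondrial DNA and many proteins encoded in the nucleus. The genes of these proteins were examined here in blastocysts. The 78 members are the protein-coding genes of the expression table whose symbol begins with *Mrpl* or *Mrps* followed by a number, which name the large and the small subunit. Among 55774 listed genes, this rule found 49 *Mrpl* and 29 *Mrps* genes. The rule used only the symbol and no measured value.

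The samples were 6 pools of 10 blastocysts each. Two-cell embryos of wild-type ICR mice, from dams aged 6 to 8 weeks, were grown for 75 hours in CZB medium that contained extracellular vesicles from human Fallopian tubes. In the oEV-EMT group (3 pools) the vesicles came from women with endometriosis, and in the oEV-ctrl group (3 pools) the labels name women with uterine fibroids, whereas the paper names another gynaecological condition. Both groups therefore received human vesicles, no culture without vesicles is used here, and how many donors stand behind each pool is not given in the sources used here. RNA was selected by its poly(A) tail, and the value of each gene is an FPKM, that is, its fragments divided by transcript length and by the library's total. The sources do not say that the pools of a group were separate cultures, so p-values measure only the spread between these pools.

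A ribosome of bacterial descent, the mitoribosome makes the 13 proteins that mitochondrial DNA encodes, all of them parts of the respiratory chain or of the ATP synthase. Its own proteins are translated in the cytosol and imported. Some have a counterpart in bacterial ribosomes and others exist only in mitochondria. Oocytes carry a large store of mitochondria into the embryo, and the blastocyst is the stage at which demand for oxidative metabolism rises before implantation.

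All 78 members reached 1 FPKM in 3 or more libraries and were tested, so none was lost to the filter. Over all genes, 11924 were tested. By the thresholds of the study (adjusted p ≤ 0.05, log2 fold change ≥ 1 in either direction), 0 of 78 members differed between oEV-EMT and oEV-ctrl, against 0.0% of all tested genes (limma, Benjamini-Hochberg). In pools of whole blastocysts, more cells of a type and more RNA per cell, or fewer and less, cannot be told apart. The smallest adjusted p-value among the members was 0.135, for *Mrpl10*. At unadjusted p ≤ 0.05, limma placed 16 members higher and 0 lower in oEV-EMT. These 16 were 20.5% of the members, whereas 12.8% of all tested genes were higher and 2.55% lower by the same rule.

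How far the groups were separated depended on how libraries were put on one scale. The median log2 fold change of all tested genes was 0.17 in favour of oEV-EMT in the deposited values, and this shift is subtracted wherever a relative log2 fold change is given. In 22 members the 3 oEV-EMT values all lay above the 3 oEV-ctrl values, or 28.2% of the members against 18.1% of all tested genes. The reverse held for 1 member, *Mrps17*, or 1.28% against 4.34%. After median-of-ratios scaling, which brings the median of all genes to 0.01, 3 members were lower and 3 higher at the unadjusted threshold, or 3.85% in each direction against 6.47% and 6.46% of all genes. By non-overlap, 3 members were then below and 8 above, or 3.85% and 10.3%, beside 10.3% and 9.82% of all genes. On this scale the members' shares were near or under those of all genes, and the excess of higher members in the deposited values was not seen. With each library instead scaled to the same total, 23 members (29.5%) were higher, beside 16.7% of all genes, and 33 (42.3%) lay above without overlap, beside 23.2%. Leaving out 1 library moved the count of higher members most without oEV-EMT 2, where 8 (10.3%) were higher beside 9.31% of all genes, and without oEV-ctrl 2, where 9 (11.5%) were higher beside 8.15%. Without oEV-EMT 1 the count was 18 (23.1%), beside 13.5% of all genes.

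**Figure D1:**
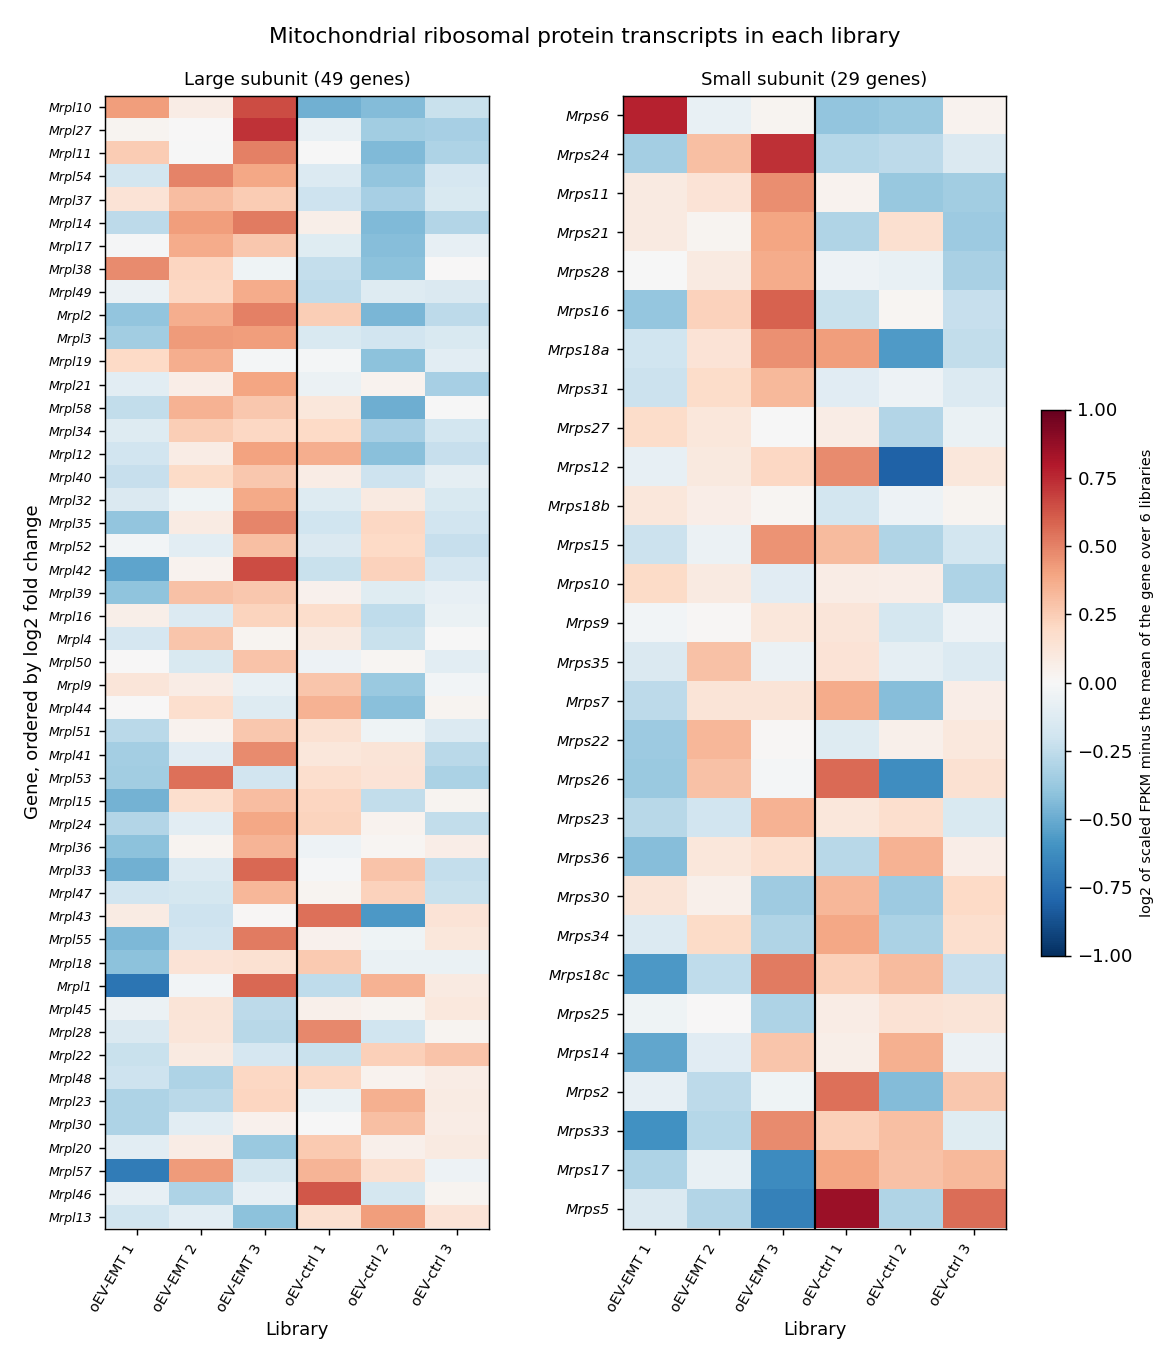
Heat map of the 78 members by library. Colour gives log2 of the FPKM after median-of-ratios scaling, minus the mean of that gene over the 6 libraries, for 49 large subunit genes (left) and 29 small subunit genes (right), ordered by log2 fold change. Rows at the top are red in oEV-EMT and blue in oEV-ctrl and those at the bottom the reverse, an order set by the fold change itself, while much of the middle varies by library rather than by group, with oEV-EMT 1 pale or blue and oEV-EMT 3 red in many rows.

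The medians of the 2 subunits were close. The median relative log2 fold change was 0.11 for the large subunit and 0.07 for the small subunit, and 0.09 for all 78 members. Of the large subunit genes, 32 of 49 lay above the median of all genes, and of the small subunit genes 17 of 29. The middle 50% of all tested genes lay between -0.22 and 0.23 on this scale. At the unadjusted threshold 11 large subunit genes (22.4%) and 5 small subunit genes (17.2%) were higher, beside 12.8% of all tested genes. After median-of-ratios scaling 3 large (6.12%) and 0 small subunit genes were higher, beside 6.46% of all genes. On that scale 1 large (2.04%) and 2 small subunit genes (6.90%) were lower, beside 6.47%. The difference between the 2 medians was 0.04 in favour of the large subunit, and it turned to -0.04 without oEV-EMT 3 and to -0.03 without oEV-ctrl 1.

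Library by library, the level of a subunit can be read as the median log2(FPKM + 1) of its genes minus that of all tested genes. For the large subunit this level was 3.13, 3.26 and 3.37 with oEV-EMT and 3.26, 3.08 and 3.21 with oEV-ctrl. For the small subunit it was 2.72, 3.12 and 3.10 with oEV-EMT and 2.95, 2.89 and 2.90 with oEV-ctrl. The groups overlapped in both subunits, with oEV-EMT 1 lowest of all for the small subunit. The large minus small difference of these levels was 0.41, 0.13 and 0.27 with oEV-EMT and 0.31, 0.19 and 0.30 with oEV-ctrl, so the balance between subunits varied more among the oEV-EMT pools than between the groups.

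Whether summed FPKM separated the groups depended on the scale on which libraries were compared. The 78 members together made up 1.22, 1.33 and 1.46% of the FPKM of annotated nuclear genes in oEV-EMT pools, as opposed to 1.11, 1.04 and 1.10% in oEV-ctrl pools. Here the groups did not overlap. After median-of-ratios scaling, the sums were 7112, 8661 and 10867 in oEV-EMT and 8891, 8498 and 7764 in oEV-ctrl, and oEV-EMT 1 became the lowest of the 6. *Mrpl33*, *Mrpl42* and *Mrps18c* held from 16.4% to 23.7% of this sum. Without them the scaled sums were 5949, 7103 and 8353 in oEV-EMT and 7248, 6482 and 6324 in oEV-ctrl, which left the libraries in the same order.

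**Figure D2:**
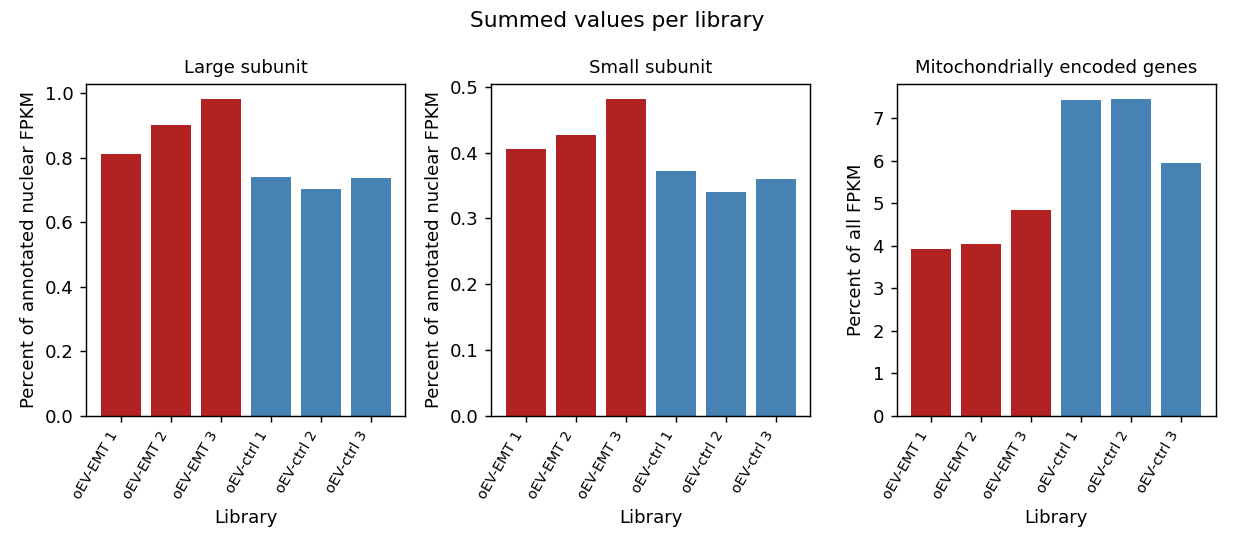
Summed FPKM per library for the large subunit genes and the small subunit genes, each as a percentage of the FPKM of annotated nuclear genes, and for mitochondrially encoded genes as a percentage of all FPKM (bars start at 0, red for the 3 oEV-EMT and blue for the 3 oEV-ctrl libraries). On these scales both subunits are higher in each oEV-EMT library (0.81 to 0.98% and 0.41 to 0.48%) than in each oEV-ctrl library (0.70 to 0.74% and 0.34 to 0.37%), while mitochondrially encoded genes are lower (3.93 to 4.84% against 5.96 to 7.45%).

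The members lie on 17 chromosomes, with 11 on chromosome 11 and 8 on chromosome 17. Promoters are shown because several transcription factors are known to act on genes of the mitoribosome, among them NRF1, factors of the ETS family and YY1. None of the letter strings searched for them contains another. RefSeq promoters (GRCm38.p6), from 250 bases before to 50 bases after the start, were at hand for 69 of the 78 members. Searched on both strands, GCATGCGC (NRF1) was in 8 of them, CCGGAAGT (ETS family) in 12 and AAGATGGC (YY1) in 12. These are 11.6, 17.4 and 17.4%, compared with 3.05, 4.31 and 3.19% of all 27025 genes with a listed promoter and with 6.94, 10.8 and 6.14% of 7618 tested protein-coding genes. Any of the 3 was found in 42.0% of the members, 9.91% of all genes and 22.1% of tested protein-coding genes. NRF1 letters were in 7 of 43 large and 1 of 26 small subunit promoters.

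Members with the NRF1 or ETS letters lay on both sides of the median of all genes. The 8 members with the NRF1 letters had relative log2 fold changes of -0.18 to 0.77 (median 0.13), the 12 with the ETS letters -0.19 to 0.52 (median 0.00) and the 12 with the YY1 letters from -0.00 to 0.48 (median 0.18). The members without each motif had medians of 0.04, 0.10 and 0.03. A match is a description of the letters and not evidence that a factor was bound. The 3 stretches upstream of a start printed here are each the longest run within 250 bases that holds no exon of a protein-coding gene. *Mrpl10* and *Mrps17* are the members of lowest unadjusted p in each direction, and *Mrpl43* holds the ETS letters. Capitals mark the motif.
Mrpl10 (chr11:97041408-97041559, forward strand, GRCm38.p6): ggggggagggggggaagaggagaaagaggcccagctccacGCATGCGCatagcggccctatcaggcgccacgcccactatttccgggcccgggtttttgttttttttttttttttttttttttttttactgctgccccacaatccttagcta
Mrps17 (chr5:129715247-129715496, forward strand, GRCm38.p6): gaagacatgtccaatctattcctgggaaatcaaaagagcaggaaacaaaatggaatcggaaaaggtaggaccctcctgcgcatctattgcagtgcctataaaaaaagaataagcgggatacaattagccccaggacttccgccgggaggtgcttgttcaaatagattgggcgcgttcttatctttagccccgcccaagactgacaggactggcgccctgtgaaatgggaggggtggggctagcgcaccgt
Mrpl43 (chr19:45006443-45006557, reverse strand, GRCm38.p6): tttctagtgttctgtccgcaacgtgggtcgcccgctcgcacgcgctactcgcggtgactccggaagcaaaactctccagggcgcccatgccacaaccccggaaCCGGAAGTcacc
In *Mrpl10* the capitals are the NRF1 letters, which begin 134 bases before the RefSeq start. The *Mrps17* stretch holds none of the 3 motifs. In *Mrpl43*, the capitals are the ETS letters 12 bases before the RefSeq start, and its log2 fold change was 0.12 ± 0.28.

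*Mrpl10* had the largest relative difference among the members. Its protein, uL10m, forms the base of the stalk, the flexible arm of the large subunit that recruits translation factors. The gene (ENSMUSG00000001445) spans chr11:97041560-97049213 on the forward strand of GRCm38, and the stretch printed for it lies just before this start. The FPKM was 139, 102 and 138 with oEV-EMT and 57.8, 59.9 and 77.4 with oEV-ctrl. Each oEV-EMT value exceeded each oEV-ctrl value, with a clear gap between the lowest oEV-EMT pool and the highest control. The means were 126 ± 21.3 and 65.0 ± 10.8 FPKM (SD, n = 3), a log2 fold change of 0.94 ± 0.22 (SE, as for every log2 fold change; limma, unadjusted p = 0.00131, adjusted p = 0.135). After median-of-ratios scaling it was 0.75 (limma, adjusted p = 0.252), and leaving out 1 library at a time gave 0.87 to 1.09 in the deposited values.

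*Mrpl12*, whose protein is the mobile part of the stalk held by uL10m, had an FPKM of 244, 271 and 310 in oEV-EMT and 277, 162 and 204 in oEV-ctrl. Its groups overlapped, through the high value in oEV-ctrl 1, and its log2 fold change was 0.39 ± 0.23 (limma, adjusted p = 0.446). *Mrpl11*, the counterpart of the bacterial protein that sits at the foot of the stalk, had 64.2, 49.6 and 64.3 FPKM in oEV-EMT and 41.6, 30.8 and 37.4 in oEV-ctrl. The *Mrpl11* groups did not overlap, with a log2 fold change of 0.68 ± 0.21 (limma, adjusted p = 0.195), but they overlapped after median-of-ratios scaling.

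Among proteins near the site of peptide bond formation, *Mrpl27* is the counterpart of bacterial L27. Its FPKM was 126, 114 and 171 in oEV-EMT and 90.4, 75.2 and 84.2 in oEV-ctrl, with oEV-EMT 3 far above the other libraries. The log2 fold change was 0.69 ± 0.21 (limma, adjusted p = 0.191), and without oEV-EMT 3 it was 0.52. *Mrpl14*, on the face of the large subunit that meets the small one, had 155, 229 and 224 FPKM in oEV-EMT and 149, 106 and 130 in oEV-ctrl. Only a narrow gap separated oEV-EMT 1 from oEV-ctrl 1 (log2 fold change 0.64 ± 0.23, limma, adjusted p = 0.232), and scaling by median of ratios closed it.

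Large subunit proteins that exist only in mitochondria were also among the genes without overlap. *Mrpl37*, at chr4:107055874-107066868 on the reverse strand, had 85.7, 89.1 and 78.1 FPKM in oEV-EMT and 52.2, 48.1 and 60.6 in oEV-ctrl, 1.57 times as much by the ratio of means (log2 fold change 0.65 ± 0.19, limma, adjusted p = 0.184). This gene showed little spread within either group, and its groups stayed apart after median-of-ratios scaling. *Mrpl54* had 97.5, 144 and 122 FPKM with oEV-EMT and 77.7, 65.3 and 85.0 with oEV-ctrl (log2 fold change 0.66 ± 0.22). *Mrpl49* had 74.8, 82.9 and 84.3 FPKM with oEV-EMT and 50.3, 55.2 and 60.4 with oEV-ctrl (log2 fold change 0.54 ± 0.19). The adjusted p-values of these latter genes were 0.213 and 0.232 by limma, and *Mrpl49* but not *Mrpl54* kept its groups apart after that scaling.

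In the small subunit, *Mrps11* encodes a counterpart of bacterial S11 on the platform where messenger RNA is held. Its FPKM was 115, 110 and 125 in oEV-EMT and 85.4, 64.4 and 73.2 in oEV-ctrl, with no overlap (log2 fold change 0.65 ± 0.19, limma, adjusted p = 0.185). *Mrps11* and *Mrpl46*, a large subunit gene, lie head to head on chromosome 7. In GENCODE the first spans chr7:78783119-78792989 on the forward strand and the second chr7:78775236-78783531 on the reverse strand, so that they share 413 bases. *Mrpl46* had 135, 106 and 113 FPKM in oEV-EMT and 168, 97.5 and 125 in oEV-ctrl, with overlapping groups and a log2 fold change of -0.11 ± 0.23. The strand setting of the counting is not given in the sources used here, so reads within the shared bases cannot be told apart.

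*Mrps28* and *Mrps24* are the mitochondrial relatives of bacterial S1 and S3, which lie along the path of messenger RNA. *Mrps28* had 212, 209 and 231 FPKM in oEV-EMT and 159, 157 and 147 in oEV-ctrl, with the smallest standard error of any member (log2 fold change 0.49 ± 0.18, limma, adjusted p = 0.237). *Mrps24* had 196, 283 and 345 FPKM in oEV-EMT and 157, 161 and 193 in oEV-ctrl. In *Mrps24* the oEV-EMT pools spread widely and the lowest of them barely exceeded the highest control (log2 fold change 0.65 ± 0.23, limma, adjusted p = 0.240).

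*Mrps17*, the counterpart of the rRNA-binding protein S17, ran the other way. The gene (ENSMUSG00000034211) spans chr5:129715497-129722556 on the forward strand and its printed stretch held none of the 3 motifs. Its FPKM was 41.2, 44.6 and 27.6 in oEV-EMT and 51.5, 48.2 and 54.8 in oEV-ctrl, with all 3 oEV-EMT pools below all controls and oEV-EMT 3 lowest. The log2 fold change was -0.46 ± 0.23 in the deposited values (limma, unadjusted p = 0.0689, adjusted p = 0.363) and -0.65 after median-of-ratios scaling (unadjusted p = 0.0102, adjusted p = 0.267). Without oEV-EMT 3 it was -0.26. On the scaled values *Mrpl13* and *Mrps5* were also lower at the unadjusted threshold, with log2 fold changes of -0.47 and -0.70. They are named because of these values. *Mrps5* had 18.3, 15.2 and 10.6 FPKM in oEV-EMT and 28.2, 12.7 and 25.7 in oEV-ctrl, where oEV-ctrl 2 fell among the oEV-EMT pools.

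**Figure D3:**
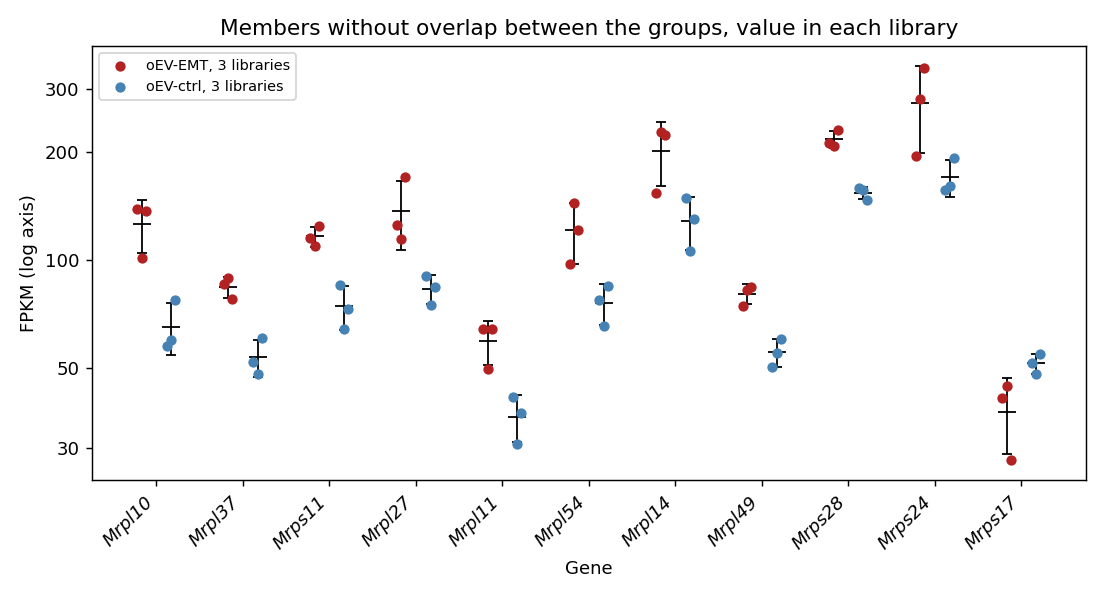
FPKM of 11 members in each of the 3 oEV-EMT (red) and 3 oEV-ctrl (blue) libraries, on a log axis, with the mean and SD of each group in black. The genes are the 10 of lowest unadjusted p among the 22 with all oEV-EMT values above all oEV-ctrl values, and *Mrps17*, the 1 member with the reverse order. They were picked for this separation, which is narrow in *Mrpl14*, *Mrps24* and *Mrps17* and wide in *Mrpl10*.

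For a single gene, an exact two-sided permutation test of 3 against 3 libraries cannot give less than p = 0.1, the value that each non-overlapping gene reaches. By Pearson correlation of log2(FPKM + 1) over the 6 libraries, the members most like *Mrpl10* were *Mrpl50* (0.95), *Mrpl11* (0.92) and *Mrpl49* (0.91), and those most like *Mrps17* were *Mrpl13* (0.88), *Mrpl20* (0.78) and *Mrps5* (0.75). These points share 6 libraries and their depth.

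Some symbols do not match the place of the protein. *Mrps18a* and *Mrps30* carry small subunit names, but their proteins sit in the large subunit, and *Mrps36* belongs to the 2-oxoglutarate dehydrogenase complex. Counting the first pair with the large subunit and leaving *Mrps36* out gave median relative log2 fold changes of 0.11 for the large and 0.08 for the small subunit. *Mrps30* had 14.4, 12.6 and 8.60 FPKM in oEV-EMT and 12.8, 7.95 and 13.0 in oEV-ctrl. *Mrps36* had 80.4, 108 and 102 FPKM in oEV-EMT and 68.6, 107 and 97.0 in oEV-ctrl. The groups of both genes overlapped, and the sign of their log2 fold changes (0.07 ± 0.27 and 0.10 ± 0.23) turned negative after median-of-ratios scaling (-0.11 and -0.09).

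The 3 paralogs related to bacterial S18 are *Mrps18a*, *Mrps18b* and *Mrps18c*, each of which occupies a different site of the mitoribosome. They differed in level, and *Mrps18c* was the most abundant with a mean FPKM of 392 against 123 for *Mrps18a* and 88.8 for *Mrps18b*. *Mrps18a* had 121, 141 and 161 FPKM in oEV-EMT and 143, 72.9 and 101 in oEV-ctrl (log2 fold change 0.46 ± 0.26). *Mrps18b* had 111, 98.8 and 86.9 FPKM in oEV-EMT and 69.6, 76.8 and 90.0 in oEV-ctrl (log2 fold change 0.32 ± 0.20). *Mrps18c* had 301, 347 and 538 FPKM in oEV-EMT and 408, 433 and 329 in oEV-ctrl (log2 fold change -0.02 ± 0.24). The sign was positive, at 0.08, with every library scaled to the same total. The groups overlapped in all 3 paralogs. *Mrpl58*, a peptidyl-tRNA hydrolase built into the large subunit, had 26.4, 36.7 and 31.7 FPKM in oEV-EMT and 26.1, 17.3 and 26.9 in oEV-ctrl, also with overlap (log2 fold change 0.43 ± 0.24, limma, adjusted p = 0.416).

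Most of these proteins are built into the mitoribosome in equal numbers, the mobile stalk protein being an exception. Their transcript levels nevertheless spanned a range of 138 times, from a mean of 5.11 FPKM for *Mrps25* to 704 FPKM for *Mrpl33*. The median member had 72.1 FPKM and 30 members exceeded 100 FPKM, against a median of 7.74 FPKM for all tested genes. *Mrpl33*, the counterpart of bacterial L33, had 577, 676 and 1007 FPKM in oEV-EMT and 616, 762 and 586 in oEV-ctrl. *Mrpl42*, a protein of the large subunit found only in mitochondria, had 496, 675 and 943 FPKM in oEV-EMT and 472, 651 and 549 in oEV-ctrl. Both had their highest value in oEV-EMT 3 and overlapping groups.

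At the bottom of the range, *Mrps25* had 5.73, 5.47 and 4.01 FPKM in oEV-EMT and 4.80, 5.07 and 5.56 in oEV-ctrl. *Mrps10* had 7.75, 6.67 and 5.26 FPKM in oEV-EMT and 5.49, 5.49 and 4.70 in oEV-ctrl. *Mrpl19*, the counterpart of bacterial L19, had 11.1, 11.4 and 7.99 FPKM in oEV-EMT and 7.32, 5.64 and 7.72 in oEV-ctrl. Of these 3, only *Mrpl19* had groups without overlap (log2 fold change 0.49 ± 0.23, limma, adjusted p = 0.342), and the gap was 7.99 against 7.72 FPKM. All 3 share stretches of sequence with other genes, and when the FPKM of those genes was added the log2 difference of *Mrpl19* was 0.32.

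Members with long transcripts had lower FPKM. Across the 78 members, the length of the longest annotated transcript and the mean level had a Pearson correlation of -0.57 and a Spearman correlation of -0.61. In the 20 shortest members (488 to 1056 bases) the median was 160 FPKM, and in the 20 longest (3277 to 7300 bases) it was 36.6 FPKM. The annotated length may not be the one that the authors' program divided by. Length also ran weakly with the log2 fold change across the members (Pearson -0.27, Spearman -0.24, n = 78). Over 11631 tested annotated genes these correlations were 0.005 and -0.11. The 20 shortest members had a median relative log2 fold change of 0.16 and the 20 longest of 0.00. All tested genes of the same lengths had medians of 0.00 and -0.06. Genes are not independent replicates, and all these points share the 6 libraries.

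**Figure D4:**
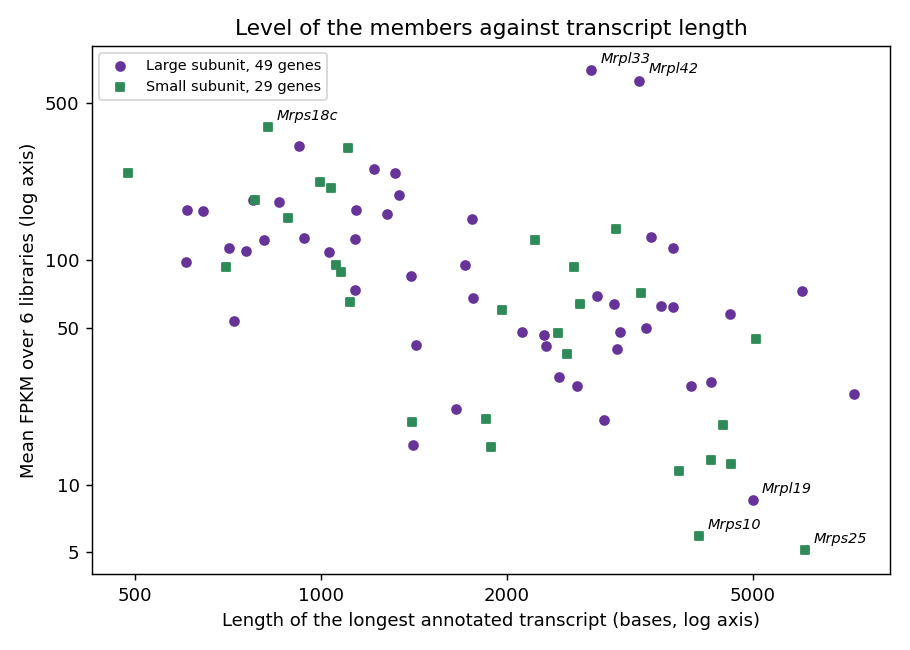
Mean FPKM over the 6 libraries against the length of the longest annotated transcript for the 78 members, both on log axes, with circles for the large and squares for the small subunit. Levels fall from about the upper left to the lower right, and *Mrpl33* and *Mrpl42* stand above the other members of their length.

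The extremes were not evenly spread over libraries. In oEV-EMT 3, 32 of 78 members (41.0%) reached their highest value, against 16.6% of all tested genes. In oEV-ctrl 2, 37 members (47.4%) had their lowest value, against 24.7% of all tested genes. By contrast oEV-EMT 1, which held the highest value of 37.4% of all genes, held that of 11 members (14.1%). The Pearson correlation of transcript length with the deviation of a member in each library was -0.06, -0.05 and -0.27 in oEV-EMT and 0.09, 0.10 and 0.32 in oEV-ctrl. Over 11631 annotated genes it was 0.23, -0.08 and -0.18 in oEV-EMT and 0.03, -0.06 and 0.02 in oEV-ctrl. The part of length in the members' values was not tested. Relative depth, read from the steps between low values, ranged from 1.00 in oEV-ctrl 1 to 2.07 in oEV-EMT 1, with 1.21 and 1.42 in the other oEV-EMT libraries.

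By descent, 46 members were listed as having a bacterial counterpart and 32 as existing only in mitochondria. The place of *Mrpl47* and *Mrpl55* in the second class is doubtful. Subunits followed the symbol here, so *Mrps18a*, *Mrps30* and *Mrps36* stayed in the small subunit classes. The values below are those of this sorting. The median relative log2 fold change was 0.13 for the first class and 0.04 for the second. Within the large subunit the medians were 0.11 for 28 genes with a counterpart and 0.05 for 21 without. Within the small subunit they were 0.15 for 18 genes with a counterpart and -0.06 for 11 without. At the unadjusted threshold 7 of the 28 (25%) and 4 of the 21 (19.0%) large subunit genes were higher, as were 5 of the 18 (27.8%) and 0 of the 11 small subunit genes, beside 12.8% of all genes. This excess depended on the scale. After median-of-ratios scaling 2 of the 28 (7.14%), 1 of the 21 (4.76%) and 0 of the 18 and of the 11 were higher, beside 6.46%. Lower on that scale were 1 of the 28 (3.57%), 2 of the 18 (11.1%) and 0 of the 21 and of the 11, beside 6.47%. The 11 also had low transcript levels, with a median of 19.1 FPKM against 94.5 FPKM for the 18. Relative to all genes (log2), the level of the large subunit genes with a counterpart was 3.11, 3.38 and 3.47 in oEV-EMT and 3.42, 3.21 and 3.22 in oEV-ctrl, which overlapped, and that of those without was 3.13, 3.22 and 3.32 against 2.80, 2.81 and 2.86, which did not. In the small subunit the level of the 18 was 3.52, 3.66 and 3.98 in oEV-EMT and 3.36, 3.31 and 3.32 in oEV-ctrl, which did not overlap, and that of the 11 was 0.96, 1.07 and 1.26 against 1.33, 1.00 and 1.10, which did. By this level each descent class had separate groups in one subunit and overlapping groups in the other. The mean difference in level was 0.40 for the 21 and 0.39 for the 18, well above their median relative log2 fold changes. By gene, 5 of the 21 (23.8%) and 5 of the 18 (27.8%) lay above without overlap. So did 10 of the 28 (35.7%) and 2 of the 11 (18.2%), beside 18.1% of all genes. Below without overlap lay 1 of the 18 (5.56%) and 0 of the other classes, beside 4.34%. After median-of-ratios scaling 4 of the 28 (14.3%), 2 of the 21 (9.52%), 2 of the 18 (11.1%) and 0 of the 11 lay above, beside 9.82%. Below lay 1 of the 28 (3.57%), 0 of the 21, 1 of the 18 (5.56%) and 1 of the 11 (9.09%), beside 10.3%. The classes were drawn up with earlier results of these data known, and no test was made of their difference.

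A further 5 mitoribosomal proteins carry other symbols. *Ptcd3*, a small subunit protein of the RNA-binding pentatricopeptide repeat family, was higher at the unadjusted threshold with a mean of 37.0 FPKM in oEV-EMT and 21.7 in oEV-ctrl (log2 fold change 0.77 ± 0.24, limma, adjusted p = 0.190). *Gadd45gip1* had a log2 fold change of 0.53 ± 0.28 and *Aurkaip1* of 0.22 ± 0.23, neither past that threshold. The median relative log2 fold change of the 5 was 0.05.

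Of 27 factors that assemble the mitoribosome or modify its RNA, all tested, 3 (11.1%) were higher and 1 (3.70%) lower at the unadjusted threshold, near the 12.8% and 2.55% of all genes, and 0 passed the adjusted one. *Rpusd3*, which makes pseudouridine in mitochondrial RNA, had means of 28.3 and 17.7 FPKM in oEV-EMT and oEV-ctrl (log2 fold change 0.66 ± 0.22). *Mettl17*, a factor of small subunit assembly, had 21.9 and 14.1 FPKM (0.60 ± 0.22). *Noa1*, a GTPase needed for mitochondrial translation, had 3.92 and 6.35 FPKM (-0.58 ± 0.22). Their adjusted p-values in limma were 0.222, 0.241 and 0.254. After median-of-ratios scaling 0 of the 27 were higher and 1 was lower at the unadjusted threshold.

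Of 15 translation factors tested, 1 (6.67%) was higher at the unadjusted threshold and 0 lower, beside 12.8% and 2.55% of all genes. Relative to the median of all genes, 10 lay below. The higher one was *Mtif2*, the initiation factor that brings initiator tRNA to the ribosome, at 14.1 FPKM in oEV-EMT and 9.71 in oEV-ctrl (log2 fold change 0.50 ± 0.22, limma, adjusted p = 0.312). *Gfm2*, which acts in ribosome recycling, and *Guf1* had log2 fold changes of 0.45 ± 0.24 and 0.27 ± 0.23. The median relative log2 fold change of the 15 was -0.11, and 1 listed symbol was not found. After median-of-ratios scaling 0 of the 15 were higher and 0 lower, beside 6.46% and 6.47% of all genes. Without overlap 2 (13.3%) then lay below and 1 (6.67%) above, beside 10.3% and 9.82%.

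Transcripts of mitochondrial DNA stood on the other side of the median. Of the 13 mitochondrially encoded mRNAs, 11 (84.6%) were lower at the unadjusted threshold and had all oEV-EMT values below all oEV-ctrl values. Among all tested genes these shares were 2.55% and 4.34%. The median relative log2 fold change of the 13 was -0.96. The 2 mitochondrial rRNAs, which form the core of the mitoribosome, were measured after poly(A) selection. *mt-Rnr1*, of the small subunit, had means of 1557 FPKM in oEV-EMT and 3418 in oEV-ctrl (log2 fold change -1.08 ± 0.30, limma, adjusted p = 0.174). *mt-Rnr2*, of the large subunit, had 2945 and 4866 FPKM (-0.71 ± 0.22, adjusted p = 0.196). None of these 15 transcripts passed the adjusted threshold, at which 0 of all tested genes did. Set beside them, nuclear-encoded subunits of respiratory complexes and ATP synthase had a median relative log2 fold change of -0.20 (76 tested) and the proteins of the cytosolic ribosome of -0.19 (79 tested). No test was made between these lists and the members.

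**Figure D5:**
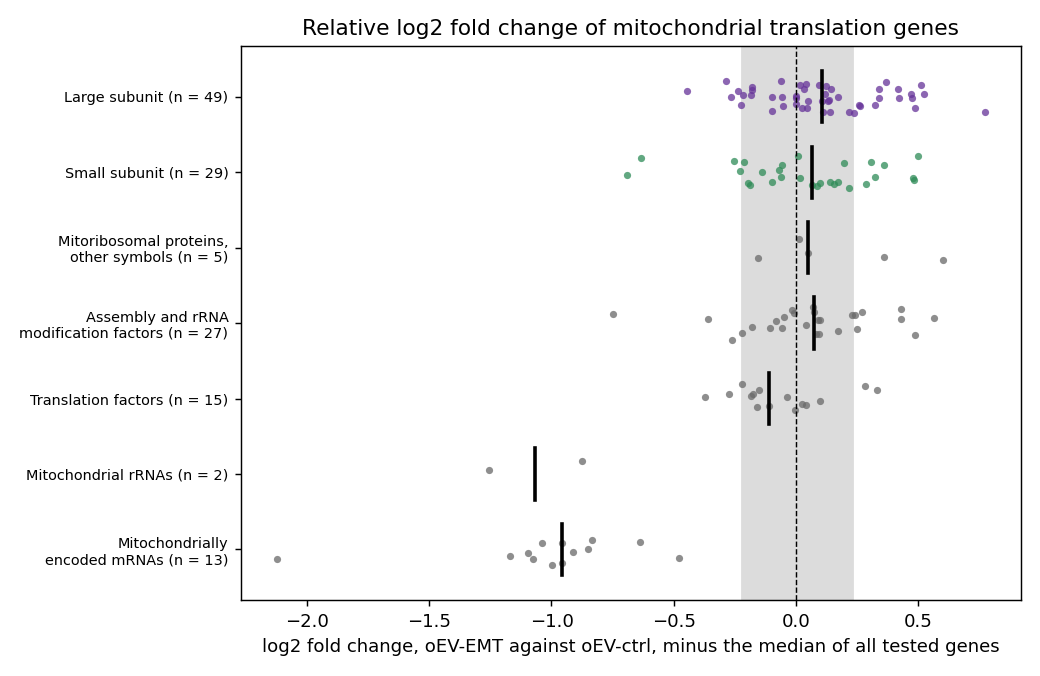
Relative log2 fold change (oEV-EMT against oEV-ctrl, minus the median of all tested genes) for the large and small subunit genes, the 5 mitoribosomal proteins with other symbols, 27 assembly and rRNA modification factors, 15 translation factors, 2 mitochondrial rRNAs and 13 mitochondrially encoded mRNAs. Each point is a gene, black bars are medians and the grey band is the middle 50% of all tested genes, -0.22 to 0.23. The 4 lists of nuclear genes of the ribosome and its assembly have medians of 0.05 to 0.11, the translation factors -0.11, and all transcripts of mitochondrial DNA lie to the left.

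Markers of the blastocyst lineages were present in all libraries, led by the trophectoderm keratins *Krt8* and *Krt18*. Of 6 epiblast markers *Pou5f1*, *Nanog* and *Fgf4* were higher in oEV-EMT at the unadjusted threshold and had no overlap between groups, or 50% beside 12.8% and 18.1% of all genes. *Sox2*, *Klf2* and *Tdgf1* had relative log2 fold changes of -0.49, -0.10 and 0.15 with overlap. All 6 together summed to 106 to 145 FPKM in oEV-EMT and 56.9 to 102 FPKM in oEV-ctrl. After median-of-ratios scaling 3 of the 6 (50%) were again higher at the unadjusted threshold, beside 6.46% of all genes. Without overlap 3 lay above on that scale, beside 9.82%. Of 7 trophectoderm markers 1 (14.3%), *Elf5*, was higher, beside 12.8% of all genes (sums over the 7 of 3123 to 4734 and 3075 to 4826 FPKM). *Elf5* lay above the median of all genes and the other 6 below (median relative log2 fold change of the 7 -0.19). *Eomes* and *Gata3* were lowest, at -0.56 and -0.44, and the groups overlapped in all 7. After median-of-ratios scaling 0 of the 7 were higher and 1 (14.3%), *Eomes*, was lower at the unadjusted threshold, beside 6.46% and 6.47% of all genes. Of 6 primitive endoderm markers 2 (33.3%), *Gata4* and *Sox17*, were higher in the deposited values, beside 12.8% of all genes (sums over the 6 of 30.9 to 47.9 and 31.1 to 37.2 FPKM). *Gata6*, *Foxa2*, *Pdgfra* and *Sox7* had relative log2 fold changes of -0.36, -0.16, -0.10 and 0.35. After median-of-ratios scaling 1 of the 6 (16.7%) was higher, beside 6.46% of all genes. Without overlap 1 then lay above and 1 below (16.7% each), beside 9.82% and 10.3%. Cumulus cell and oviduct markers summed to at most 0.486 and 0.743 FPKM, with 4 and 2 of 6 listed at 0 in every library. The part of the lineage markers in the members' values was not tested. The heaviest entry of every library was an unannotated one with 15.3 to 31.5% of all FPKM, and its part in the shift between groups was not tested.

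Some members cannot be measured cleanly from short reads. Exons of another gene overlap those of 33 members, in 28 cases on the opposite strand. Identical stretches of 50 bases tie 37 members to another gene (at least 10% of the stretches of one partner), and in 13 of them the member held less than 90% of the summed FPKM of the group. *Mrpl47* held 11.6% of the sum with *Actl6a* and *Ndufb5*, and *Mrps10* 15.4% of the sum with 4 genes known by clone or model names. Adding the partners moved the log2 difference of *Mrps10* from 0.27 to 0.11, of *Mrpl19* from 0.49 to 0.32, of *Mrps26* from 0.11 to -0.34 and of *Mrps25* from -0.03 to -0.13. The sums take the whole FPKM of each partner, also where little is shared. Of the stretches of *Mrps10* and *Mrps26* only 3.50% and 4.25% were shared, against 36.1% for *Mrpl19* and 68.2% for *Mrps25*. The summed values of *Mrpl27* and its partner had a log2 difference of 0.74, against 0.69 for the gene alone, and those of *Mrpl10* 0.94 in both.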

How the data were processed

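RNA sequencing of 6 pools of 10 blastocysts (3 oEV-EMT, 3 oEV-ctrl, grouped by the sample labels) was used. The authors aligned reads, assembled transcripts with StringTie and used DESeq2 for their own comparison, which is not used here. The aligner is not given in the sources used here, and the labels name mm10. The authors deposited 1 value for each of 55774 genes and library. Their methods say TPM, but sums were 1293175 to 1551567 rather than 1000000, so the deposited values were treated as FPKM. The depth in reads is unknown, and only relative depth was derived from the steps between low values.

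Members were found by symbol through GENCODE M21 (55141 of 55487 Ensembl identifiers matched). Genes reaching 1 FPKM in 3 or more libraries were fitted as log2(FPKM + 1) in limma 3.58.1 (R 4.3.3), with trended and robust variance and no covariate, followed by Benjamini-Hochberg adjustment over 11924 genes. Fold changes are on this scale, which understates those of low genes. Thresholds followed the study, adjusted p ≤ 0.05 and log2 fold change ≥ 1 in either direction. A count model could not be used on FPKM.

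Alternatives were other scalings, pseudocount, filter, variance model, thresholds, subunit lists, leaving out each library and a replicate block. The named genes were up to 10 members of lowest p per direction without overlap between groups, the 3 highest and 3 lowest in level, members whose name and place differ or that form a paralog group, and the stalk pair, and up to 3 genes of each other list. The members and lists were chosen with earlier results of these data known. Motifs and shared stretches of 50 bases were searched in Python 3.11.15, and figures were drawn with matplotlib 3.10.9.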

Additional observations from a re-analysis of the deposited data

How the results depend on the processing

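With each alternative, 0 members passed the adjusted p and fold change thresholds, also at an adjusted p of at most 0.1 without a fold threshold. Counts at the unadjusted threshold followed the scaling. By median of ratios 3 members were lower and 3 higher, 3 below and 8 above without overlap, and by upper quartile these were 3, 1, 6 and 4, against 0, 16, 1 and 22 in the deposited values. By upper quartile 4.48% of all genes were higher and 8.13% lower, and 12.6% lay below and 7.41% above without overlap. With a total of 1000000 the counts were 0, 23, 1 and 33, beside 1.64, 16.7, 2.77 and 23.2% of all genes. With a total over annotated nuclear genes they were 0, 17, 1 and 25, beside 2.07, 13.6, 3.52 and 18.9%. Without a filter on low values the median relative log2 fold change was 0.24 for all members and 0.26 for the large subunit, because the median of all 31842 genes then fell to 0.02. Leaving out 1 library at a time gave 0 to 1 members lower and 8 to 18 higher at the unadjusted threshold. Of all genes, 1.69 to 4.84% were then lower and 7.88 to 13.9% higher. Without overlap, 1 to 3 members lay below and 24 to 33 above, beside 5.89 to 12.6% and 21.8 to 30.6% of all genes. It gave median relative log2 fold changes of 0.03 to 0.15 for all members, 0.02 to 0.19 for the large and 0.01 to 0.15 for the small subunit, and -0.04 to 0.09 for their difference.

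The log2 fold changes of 5 named members changed sign. *Mrps25* was 0.048 with a total of 1000000 per library and 0.0037 with a total over annotated nuclear genes, and -0.11 to 0.11 when leaving out libraries. *Mrps18c* was 0.077 and 0.020 with those totals, and -0.26 to 0.16 when leaving out libraries. By median of ratios and upper quartile, *Mrpl33* was -0.026 and -0.096, *Mrps30* -0.11 and -0.17, and *Mrps36* -0.092 and -0.16. When leaving out libraries they spanned -0.060 to 0.34, -0.14 to 0.27 and -0.085 to 0.23. The cause of these changes was not tested.

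With the replicate number as a replicate block, 12 members (15.4%) were higher and 0 lower at the unadjusted threshold, beside 11.2% and 2.36% of all genes. Of the members 0 passed both thresholds, while 21 of all genes did. Pools of the same number had correlations of 0.12, -0.04 and 0.04 between their deviations, against -0.13 to 0.12 for pools of different numbers. With 3 pools in each group these values cannot decide whether the numbers pair them. The other members that the naming rule chose kept their sign under each alternative. Without read totals, counting error cannot be given.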
